A study of Mus musculus with 4 samples.

Results

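Clusters of closely spaced regions are places on a chromosome where several reproducible binding regions of phosphorylated STAT3 lie near one another. A region was taken as a member when its midpoint lay within 10 kb of the midpoints of at least 2 other regions on the same chromosome. Of 12925 reproducible regions, 980 (7.58%) were members. Chaining regions up to 10 kb apart gave 342 clusters with 1196 regions (9.25% of all), because 216 further regions at the edges had only 1 neighbour within 10 kb. Both the members and the clusters were chosen by the measured positions of the regions, so their number and spacing are a description. Set beside them were the 9343 lone regions, with no other region within 10 kb, and the 2386 regions that formed pairs.

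The libraries came from chromatin immunoprecipitation and sequencing (ChIP-seq) with an antibody against STAT3 phosphorylated on tyrosine, in primary oligodendrocyte progenitor cells from the cortex of C57BL/6 mice. The cells grew with PDGF-AA at 10 ng/ml and bFGF at 20 ng/ml, and all of them, in ChIP and input libraries alike, received CNTF at 100 ng/ml for 15 min. There were 2 ChIP libraries, replicates 1 and 2, and 2 input libraries, which were not analysed here. No cells without CNTF were included, so nothing below compares treated with untreated cells. The labels do not say whether the replicates came from separate animals or cultures. Defining markers of the cells could not be read from binding regions, which say nothing of expression.

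STAT3 is a transcription factor that waits in the cytoplasm. Ciliary neurotrophic factor (CNTF) binds a receptor complex that contains gp130 and the LIF receptor, the attached JAK kinases phosphorylate STAT3, and STAT3 dimers enter the nucleus and bind DNA, preferring the palindrome TTCNNNGAA. SOCS3, a product of one of its best known target genes, blocks the receptor complex in return. In glial progenitors, cytokines of this family are known for effects on survival and on the choice between astrocyte and oligodendrocyte fates. Neighbouring binding regions at one gene may be separate enhancers or parts of one regulatory stretch, which ChIP-seq peaks do not tell apart.

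The promoter sequences that follow are the 250 bases upstream of gene starts that lay in clusters, from RefSeq (GRCm38.p6). They are shown because they hold the letters that STAT3 prefers, or, for Junb and Gm13289, because they lie under a cluster region and hold none of them. Capitals mark TTCNNNGAA, which reads the same on both strands. The Socs3 promoter (chr11:117969367-117969616, minus strand) lay under a region of folds 49.9 and 49.2 (replicates 1 and 2, in that order here and for all paired values below). A fold is the authors' enrichment of ChIP signal over local background. The Zfp36 promoter (chr7:28379229-28379478, minus strand) and the Junb promoter (chr8:84978749-84978998, minus strand) lay under regions with 13.8 and 8.95, and with 24.4 and 24.3. Those of Gm13279 (chr4:88796987-88797236, plus strand) and Gm13289 (chr4:88776512-88776761, plus strand) belong to the array described further on and matched each other at 99.2% of compared bases.
Socs3 promoter: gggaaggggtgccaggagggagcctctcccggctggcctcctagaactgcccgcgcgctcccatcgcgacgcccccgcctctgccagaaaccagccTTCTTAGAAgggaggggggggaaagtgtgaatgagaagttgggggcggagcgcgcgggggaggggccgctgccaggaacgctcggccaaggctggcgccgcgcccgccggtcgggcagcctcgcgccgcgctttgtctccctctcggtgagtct
Zfp36 promoter: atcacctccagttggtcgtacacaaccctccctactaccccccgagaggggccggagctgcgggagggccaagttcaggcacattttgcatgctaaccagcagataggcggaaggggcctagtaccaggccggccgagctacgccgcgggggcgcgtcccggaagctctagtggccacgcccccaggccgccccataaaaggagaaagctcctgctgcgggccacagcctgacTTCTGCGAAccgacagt
Junb promoter: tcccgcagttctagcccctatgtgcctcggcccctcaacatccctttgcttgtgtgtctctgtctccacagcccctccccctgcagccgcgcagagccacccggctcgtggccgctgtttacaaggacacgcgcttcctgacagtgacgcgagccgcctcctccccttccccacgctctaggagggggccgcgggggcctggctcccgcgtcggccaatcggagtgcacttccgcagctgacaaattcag
Gm13279 promoter: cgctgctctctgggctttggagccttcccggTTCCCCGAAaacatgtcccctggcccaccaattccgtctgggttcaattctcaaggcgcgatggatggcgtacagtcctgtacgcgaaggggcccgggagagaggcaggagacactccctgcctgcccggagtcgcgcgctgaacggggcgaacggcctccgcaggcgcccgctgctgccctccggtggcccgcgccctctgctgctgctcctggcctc
Gm13289 promoter: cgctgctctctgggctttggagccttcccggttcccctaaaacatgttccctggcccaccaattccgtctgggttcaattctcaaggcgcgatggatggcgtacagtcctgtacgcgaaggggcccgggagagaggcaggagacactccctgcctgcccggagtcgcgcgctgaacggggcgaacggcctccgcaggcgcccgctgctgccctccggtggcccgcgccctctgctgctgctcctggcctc

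The mature microRNAs of the Mir9 genes are shown because all 3 genes had cluster regions within 10 kb. They come from RefSeq (GRCm38.p6), with the seed, bases 2 to 8, in capitals.
miR-9-5p: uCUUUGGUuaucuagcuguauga
miR-9-3p: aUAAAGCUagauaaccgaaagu

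The share of promoters with the motif was lower under cluster regions than under other regions, with overlapping intervals. Of 137 promoters of 250 bases that overlapped a cluster region, 12 held TTCNNNGAA (8.76%, with a Wilson 95% interval of 5.08% to 14.7%). Of 2308 that overlapped a region outside clusters, 291 (12.6%, 11.3% to 14.0%) held it, and of 30406 that overlapped no region, 2003 (6.59%, 6.31% to 6.87%) did. Over all 32851 promoters the share was 7.02%. The 12 included Socs3 (TTCTTAGAA, 154 bp upstream of the start), Zfp36 (TTCTGCGAA, 17 bp), Klf9 (TTCTGCGAA, 33 bp), Nfix (TTCCAGGAA, 155 bp) and Gab1 (TTCAGAGAA, 12 bp), the last 3 named after their values were seen. A match shows only that the letters stand in this window, and promoters of 1 cluster are not independent, which the intervals do not take into account.

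Most clusters were small. Of the 342, 256 (74.9%) had 3 regions and 51 (14.9%) had 4, while 35 had 5 or more and together held 224 regions. There were 6 clusters of 6 regions, 2 of 7, 3 of 8, 1 of 9, 1 of 10 and 3 of 12, the largest size. From the first to the last region a cluster spanned 1.57 to 57.2 kb, with a median of 9.995 kb and quartiles of 6.77 and 13.8 kb. Neighbouring midpoints within clusters were 477 to 9997 bp apart with a median of 3629 bp (quartiles 1821 and 6221 bp). Of 854 neighbouring pairs, 239 (28.0%) were under 2 kb apart, and the gap between the facing edges was under 500 bp in 121 (14.2%), with a smallest gap of 102 bp. No regions touched.

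**Figure D1:**
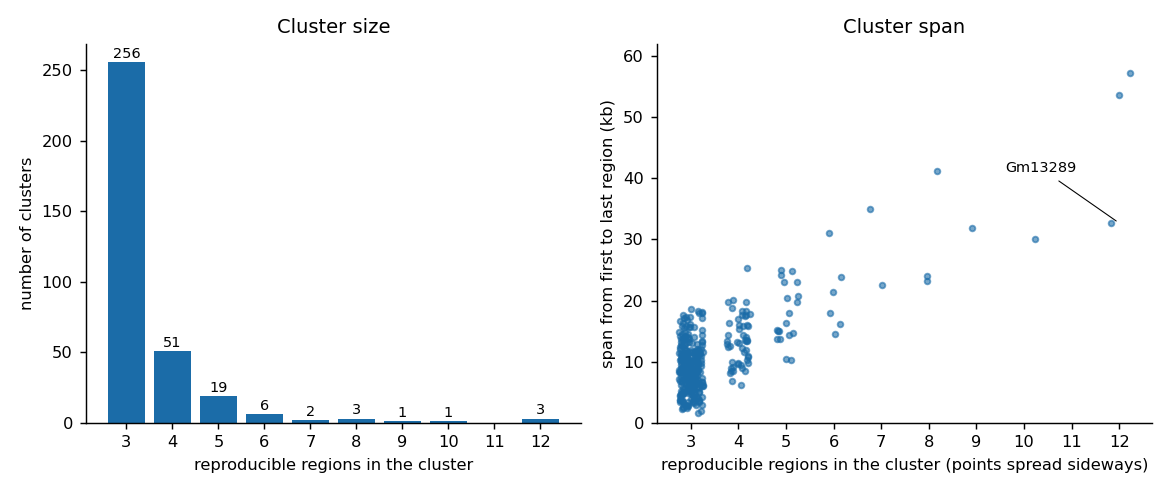
Left, number of clusters (vertical axis) by the number of reproducible regions in them (horizontal axis), with 256 of 342 clusters at 3 regions. Right, span in kb of each cluster (1 point each) by its number of regions, with all clusters of 3 below 20 kb and the 3 clusters of 12 between 32.7 and 57.2 kb.

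Clusters were spread unevenly over the chromosomes. Chromosome 4 had the most, 33 clusters, and held 13.04% of its regions in clusters. The share was 14.0% on chromosome 8 and 13.5% on chromosome 15, against 4.50% on chromosome 14. The X chromosome had 1 cluster of 3 among 193 regions (1.55%), and chromosome Y had none among 3 regions.

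Member regions carried slightly more ChIP signal than lone regions in both libraries, with broad overlap. The pileup is the number of fragments that overlap at the peak, and the fold divides it by the background around the peak after adding 1 to each. The median fold of members was 11.1 in replicate 1 (quartiles 7.87 and 17.4) and 8.19 in replicate 2 (5.80 and 12.9). For lone regions it was 10.3 (7.70 and 15.4) and 7.42 (5.63 and 11.2). Median pileups were 77 and 36 in members, against 67 and 32 in lone regions. The median local background was 5.72 and 3.28 for members, against 5.06 and 3.26 for lone regions. Signal made the regions and so bears on the rule, and these differences are given without a test. Edge regions had median folds of 11.03 and 7.75, and regions in pairs of 10.46 and 7.56.

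A region was called strong when the lower of its 2 fold values was 20 or more. That held for 117 members (11.9%) and 26 edge regions (12.04%), against 633 lone regions (6.78%), where the share over all 12925 regions was 7.76%. Members were also wider, with a median of 602 bp against 489 bp for lone regions. The irreproducible discovery rate (IDR), which rates how well the rank of a region repeats between libraries, was 0.01 or less for 82.8% of members, against 78.8% of lone regions. Near the limit of the rule the signal was ordered the other way. The 20 members whose second neighbour was 9765 to 9997 bp away had median folds of 9.82 and 7.59, and the 20 regions just outside, at 10014 to 10196 bp, had 10.9 and 8.21.

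Being in a cluster did not go with a higher share of regions at promoters. Of the members, 219 had a transcript start of the authors' table within 1 kb (22.3%, Wilson 95% interval 19.8% to 25.1%), against 2277 lone regions (24.4%, 23.5% to 25.3%), where 23.9% of all regions did. Inside a listed transcript lay 59.0% of members against 56.2% of lone regions, with 57% for all regions. Farther out the shares parted. Within 5 kb of a start lay 46.1% of members against 37.0% of lone regions, and only 19.4% of members were more than 25 kb from any start, against 34.4% of lone regions. The median distance to a start was 6000 bp for members and 11601 bp for lone regions. A transcript end lay within 1 kb of 11.7% of members and of 7.21% of lone regions. Regions of 1 cluster share their surroundings, so the intervals, which treat regions as independent, are too narrow.

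Counted by cluster, 135 of 342 (39.5%, 34.4% to 44.7%) had a protein-coding start within 1 kb of some region, 179 (52.3%, 47.0% to 57.6%) within 5 kb and 239 (69.9%, 64.8% to 74.5%) within 25 kb. For 155 clusters exactly 1 protein-coding gene lay within 25 kb, and for 103 (30.1%) none did. In 143 clusters some regions lay within 1 kb of a start and others farther off, and in 14 all of them were that near. The strongest region of a cluster was no nearer to starts than the rest: 75 of 342 strongest regions (21.9%) and 177 of 854 others (20.7%) lay within 1 kb of one.

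Within a cluster the regions were unequal, and in most clusters both libraries had the same strongest one. The same region had the highest fold in both replicates in 292 of 342 clusters (85.4%), and in 29 of the 35 with 5 or more regions. The strongest region of a cluster had a median fold of 21.3 in replicate 1 and 15.3 in replicate 2, and the weakest 7.17 and 5.51. In 95 clusters (27.8%) the lower fold of the strongest region was at least 2 times that of the next. A strong region was present in 120 clusters (35.1%), but 2 or more were present in only 19, and in 77 (22.5%) every region was under 10. In clusters of 3 the strongest region was at an end in 166 of 256, where 2 of the 3 places are ends, so this count shows no preference for ends. Across regions, log2 folds of both replicates, taken as differences from the cluster mean, had a Pearson correlation of 0.949 (1196 regions, a description, since each library served to select the regions).

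**Figure D2:**
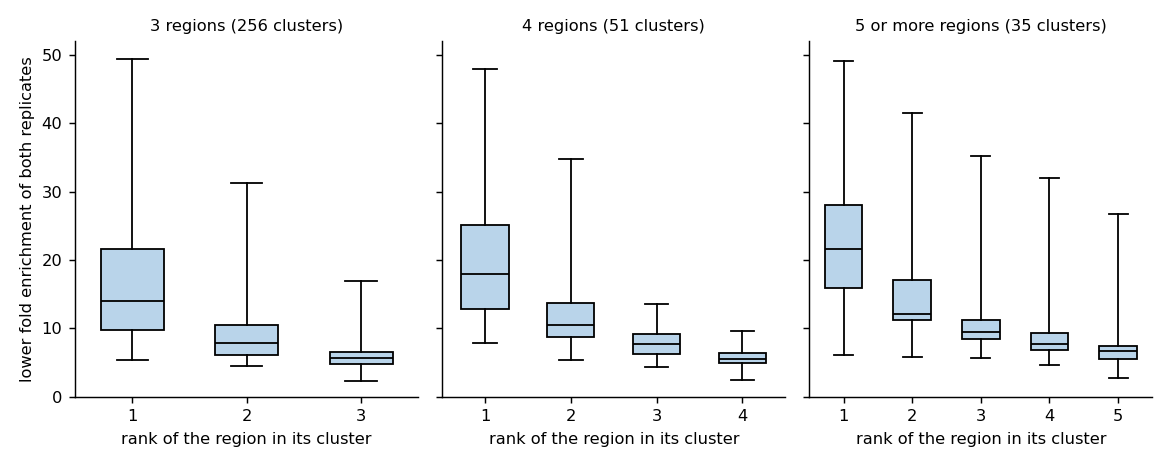
Lower fold enrichment of both replicates (vertical axis) by the rank of a region in its cluster (horizontal axis), for clusters of 3, 4 and 5 or more regions; boxes show quartiles with the median, and whiskers the whole range. In clusters of 3 the medians by rank are 13.97, 7.88 and 5.62, and in clusters of 5 or more the strongest region has a median of 21.7 and the next 12.1.

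The strongest region was higher in clusters of 4 and 5 than in clusters of 3, without a steady order among the few larger ones. Its median lower fold was 13.97 in clusters of 3, 17.98 in clusters of 4 and 21.0 in clusters of 5. It was 23.3 in the 6 clusters of 6, 24.4 in the 2 of 7 and 21.0 in the 3 of 8. The cluster of 9 had 11.04, that of 10 had 19.7, and the 3 clusters of 12 had a median of 47.2. The third region had 5.62 in clusters of 3, 7.68 in clusters of 4 and 9.48 in clusters of 5 or more. A larger cluster offers more regions from which the highest is taken, so the order of these values follows in part from the count.

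The cluster at Socs3, the gene of the feedback inhibitor of cytokine receptors, was the largest together with 2 others and held the most strong regions. It had 12 regions, 11 of them members, over 53.7 kb (chr11:117923058-117976767). From the lowest coordinate upward, the folds in replicate 1 were 23.0, 34.6, 8.40, 25.5, 23.4, 10.7, 7.15, 36.9, 42.9, 49.9, 11.2 and 46.4. In the same order, replicate 2 gave 14.8, 26.7, 7.67, 18.7, 18.9, 8.70, 6.66, 32.0, 35.2, 49.2, 11.7 and 41.5. Both replicates were highest at the promoter and lowest at the same region. The gene is on the minus strand, so 10 of the regions lay downstream of its start and 2 upstream. Of the 12, 8 lay within 25 kb of that start. Another protein-coding gene, Pgs1, had 5 cluster regions within 25 kb of a start.

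The strongest region (chr11:117966894-117970258) was 3365 bp wide, covered the start of Socs3, and had pileups of 284 and 191. A second peak of signal lay upstream, with 46.4 and 41.5 at 5961 bp, and another downstream, with 42.9 and 35.2 at 5620 bp. Between strong regions stood weak ones, such as 7.15 and 6.66 at 14854 bp downstream, and the highest fold was 6.98 times the lowest in replicate 1 and 7.38 times in replicate 2. Next to it, 32082 bp away, the cluster at Tha1, a threonine aldolase gene, had 4 regions with 8.75 and 7.94, 47.1 and 34.8, 14.3 and 7.50, and 44.8 and 43.8. Together both clusters counted 16 regions in 101 kb.

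The second cluster of 12 lay on chromosome 12 (chr12:86770076-86827322) and had no protein-coding start within 25 kb. Its span of 57.2 kb was the longest of all. The strongest region had folds of 49.5 and 47.2, and the next were 28.1 and 24.1, and 26.8 and 25.4. The other 9 ranged between 6.11 and 13.7 in replicate 1 and between 5.21 and 10.8 in replicate 2. The non-coding genes Gm32806 and Gm51955 are annotated in this span by RefSeq. At 57109 bp from it lay the cluster of Irf2bpl, which encodes an interferon regulatory factor 2 binding protein-like factor, with 9.45 and 7.42 at the gene's start, 8.92 and 5.89, 37.3 and 31.7, and 36.1 and 35.1, the last 12314 bp upstream. With a cluster at Vash1, which encodes the angiogenesis regulator vasohibin, and 1 more of 4 regions, both named after their values were seen, there were 4 clusters with 23 regions within 253 kb, the largest such group.

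The third cluster of 12 differed in form from the other large clusters. It covered 32.7 kb of chromosome 4 (chr4:88773738-88806427) in the type I interferon gene family, with Ifnz (interferon zeta) and genes known by predicted names such as Gm13289, by which it is called here. Each of its 12 regions lay near the start of a different protein-coding gene, 9 of them within 0.2 kb and the other 3 between 612 and 647 bp. Neighbouring midpoints were 2922 bp apart on average, with an SD of 69.2 bp over the neighbouring pairs, a coefficient of variation of 2.37%. Among clusters of 5 or more regions the next lowest was 25.3%, at Fzd9, a Wnt receptor gene, which was named after its values were seen.

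Folds in the array were below the median of cluster regions in both replicates, while its pileup in replicate 1 was not: its median folds were 9.23 and 5.44 and its median pileups 76 and 30, against median folds of 11.1 and 8.14 and median pileups of 76 and 36 over all cluster regions. Its highest fold in replicate 1 was 2.68 times its lowest, the same ratio as the median of all clusters. Replicate 1 gave 9.46, 11.1, 8.95, 13.1, 10.4, 6.37, 10.6, 10.8, 8.99, 4.91, 8.12 and 8.40, and replicate 2 gave 4.35, 8.03, 5.75, 7.16, 5.05, 5.16, 6.55, 4.59, 5.72, 5.10, 4.49 and 5.82. All 12 regions stayed below the median strongest region of clusters, 21.3 and 15.3. Pileups were 67 to 82 in replicate 1 and 23 to 36 in replicate 2. The strongest region was not the same one in both replicates. The median local background was 7.40 and 4.63, against medians over all clusters of 5.59 and 3.28, and 15 clusters, this one included, had a replicate 1 background as high. Of 66 pairs of promoters in the array, 21 were at least 80% identical, and Gm13279 and Gm13290 were the same over all compared bases. The comparison asked for an overlap of at least 100 bases, so copies shifted farther against each other scored low. The Gm13289 promoter ends in the bases with which that of Gm13272 begins, yet this pair scored 41.3%. The count of 21 is thus not a measure of how much sequence the array repeats. Reads from near-identical copies cannot be assigned with certainty, and the sources used here do not give how the aligner placed such reads. The part of repeated sequence in these values and in the spacing was not tested. A cluster of 3 regions at Gm13283, named after its values were seen, continued the array, so that 15 regions lay within 49.0 kb.

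**Figure D3:**
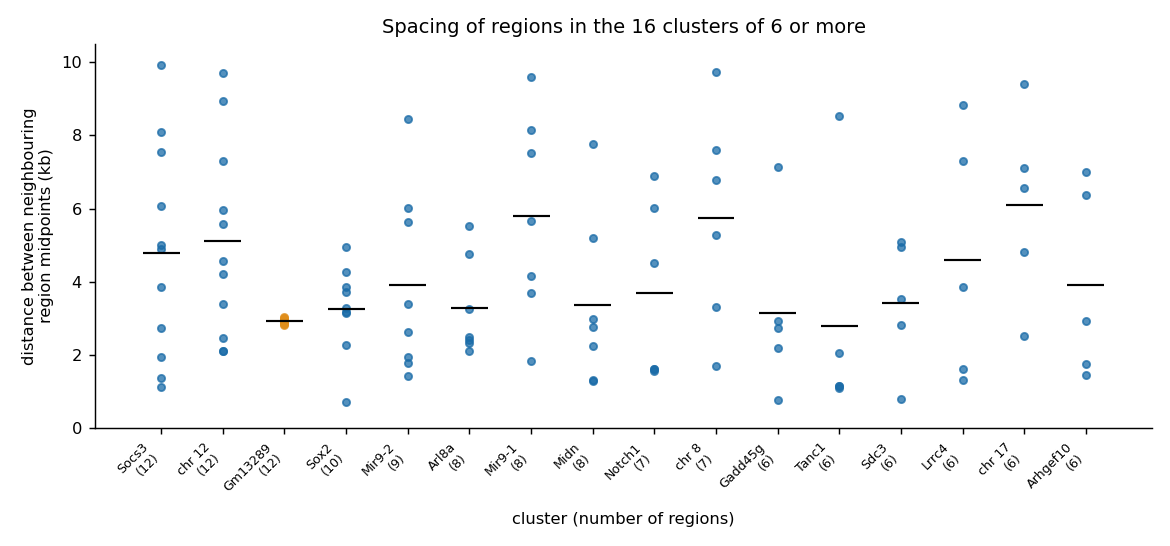
Distance in kb between neighbouring region midpoints (vertical axis) in each of the 16 clusters with 6 or more regions (horizontal axis, number of regions in brackets); points are pairs of neighbours, bars their mean, and the Gm13289 array is orange. The points of the array fall close to 2.92 kb, while each of the other 15 clusters has a coefficient of variation over 35%.

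Other large clusters sat at genes of neural progenitors and of signalling. Sox2, a transcription factor of neural stem and progenitor cells, had 10 regions in 30.1 kb (chr3:34637493-34667590), all within 25 kb of its start, more than any other gene of the lists used here had there. In both replicates 3 of them stood above the others: 29.9 and 19.7 at 4464 bp downstream of the start, 23.3 and 14.1 at 484 bp upstream, and 22.2 and 14.7 at 9995 bp downstream. The other 7 ranged between 5.11 and 11.0 in replicate 1 and between 4.08 and 9.76 in replicate 2. Notch1, the receptor of the Notch pathway, had 7 regions (chr2:26485759-26508300), all inside listed transcripts, with 34.1 and 30.6 at 10180 bp and 29.5 and 27.2 at 3284 bp downstream of its start. Gadd45g, a growth arrest gene, had 6 (chr13:51842868-51858993), with 38.3 and 37.1 at 2642 bp downstream, against 7.28 and 4.91 at the start itself.

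Among the rest of the 15 largest, the cluster at Arl8a, which encodes a lysosomal GTPase, and Gpr37l1, which encodes a glial receptor, had 8 regions (chr1:135149005-135172266). Its strongest region reached 47.2 and 40.2, and the highest of the others was 18.3 and 17.3 by its lower fold. Midn, which encodes midnolin, had 8 regions with at most 22.4 and 13.3. Tanc1, a scaffold protein gene, Sdc3, a syndecan gene, and Lrrc4, a synaptic adhesion gene, had 6 each, with at most 28.5 and 24.3, 29.3 and 24.3, and 31.7 and 22.3. The cluster of 7 at chr8:10943788-10978748 and that of 6 at chr17:10483856-10514980 had no protein-coding start within 25 kb and reached 22.6 and 18.1, and 32.0 and 21.7. Around the cluster of 7, 3 clusters with 14 regions stood within 90.1 kb. One of them, named after its values were seen, was at Irs2, the insulin receptor substrate gene, with 8.63 and 6.85, 18.7 and 12.3, and 10.8 and 6.66.

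**Figure D4:**
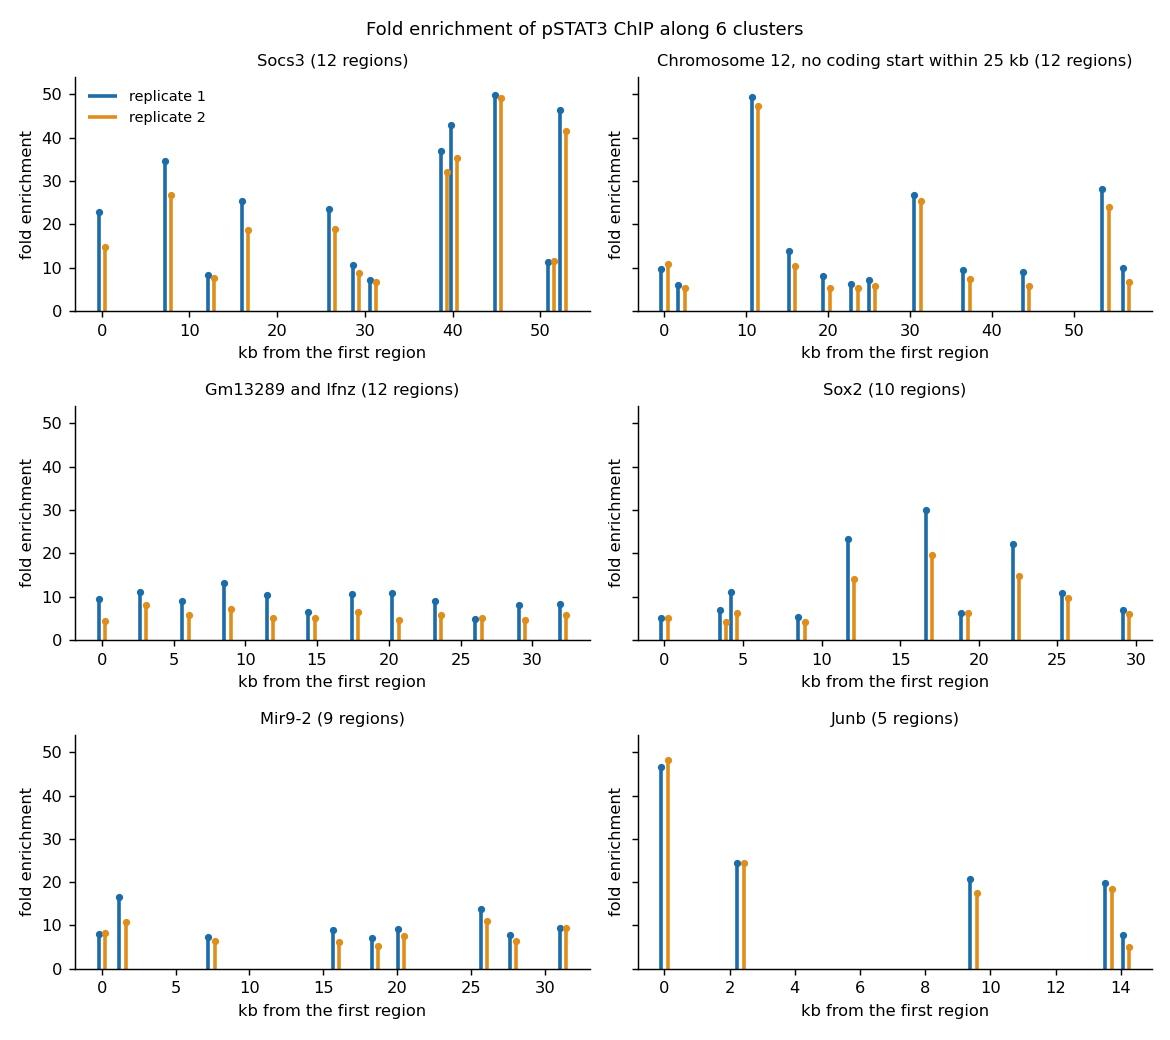
Fold enrichment (vertical axis) of each region against its distance in kb from the first region (horizontal axis) in 6 clusters, with replicate 1 in blue and replicate 2 in orange. At Socs3 5 regions are at 20 or more in both replicates, while all regions of the Gm13289 array are between 4.35 and 13.1.

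All 3 loci of 1 microRNA had cluster regions nearby, Mir9-1 and Mir9-2 within the span of a cluster and Mir9-3 just beyond the end of one. Of 1005 microRNA hairpins, 17 (1.69%) had a cluster region within 10 kb and 203 (20.2%) any region. Mir9-1, Mir9-2 and Mir9-3, which encode the neural microRNA miR-9 shown above, each had one although they stand on different chromosomes. Mir9-2 (chr13:83738814-83738885) had 6 cluster regions within 10 kb, Mir9-1 (chr3:88215598-88215686) 4 and Mir9-3 (chr7:79505264-79505353) 4. Signal there was moderate: the regions nearest to the hairpins had 13.9 and 11.0 for Mir9-2, 8.79 and 9.96 for Mir9-1, and 10.7 and 5.94 for Mir9-3. The strongest within 10 kb of Mir9-1 had 21.0 and 22.5. The Mir9-2 cluster counted 9 regions (chr13:83713759-83745636) and that of Mir9-1 8 (chr3:88200171-88241418), while Mir9-3, named after its values were seen, had 4, with a cluster of 5 beside it. Mir21a, known as a STAT3 target in other cells, lay 2.94 kb from a region with 22.4 and 17.7, in a cluster of 3 at Vmp1, also named after its values were seen.

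The highest folds of all clusters were not in the largest ones alone. After the 15 largest, the 10 clusters with the strongest regions were led by a cluster of 3 (chr10:95142621-95146100), with 50.4 and 49.4 beside 17.4 and 10.7, and 11.2 and 6.91. It had no protein-coding start within 25 kb, and the promoter of the non-coding RefSeq gene Gm29684 overlapped its weakest region. Junb, which encodes an AP-1 subunit, had 5 regions (chr8:84975537-84990648). The strongest, 46.6 and 48.3, lay 2413 bp downstream of its start, the next, 24.4 and 24.3, at the promoter, and the others, with 20.8 and 17.5, 19.7 and 18.5, and 7.88 and 5.08, on the side of the neighbouring gene Hook2. Pou3f2, which encodes a POU factor of neural precursors, had 1 dominant region, 47.9 and 49.2 at 6275 bp upstream, beside 7.17 and 5.38 at its start, 10.0 and 6.40, and 11.9 and 8.45.

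Further clusters of this kind, each with 1 region above the others in both replicates, lay at Bahcc1 (47.3 and 49.95), C1qtnf1 (44.8 and 48.1), Zfp608 (44.7 and 43.9) and the BMP receptor gene Bmpr1a (44.2 and 41.3), and on chromosome 5 far from listed coding starts (44.0 and 44.6). The cluster on chromosome 5 overlapped the RefSeq gene Lhfpl3, which is on the list of progenitor markers, but had no listed protein-coding start within 25 kb. None of the Bmpr1a regions was at its start, the nearest being 5488 bp away. The 5 densest of the clusters of at least 4 regions not among these or the largest were those at Phf21b, which encodes a PHD finger protein, Zfp36 and Zfp36l1, which encode RNA-binding proteins that promote mRNA decay, Oat, an ornithine aminotransferase gene, and the 4 regions at chr8:10921394-10929529. Their strongest regions had 28.3 and 21.0 (Phf21b), 24.5 and 13.9 (Zfp36), 14.5 and 9.47 (Zfp36l1), 17.7 and 12.6 (Oat), and 32.5 and 25.0.

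Several gene lists had higher shares of genes beside clusters than all protein-coding genes did, which is a description without a test. Of 21887 protein-coding genes, 412 had a cluster region within 25 kb of a start, a share of 1.88%, and 7517 (34.3%) had any reproducible region there. Among the 7517 genes with any region, the 412 made up 5.48%. The lists count 440 distinct genes, of which 42 had a cluster region within 25 kb. The lists were written with earlier results of these data known, so their shares are no independent evidence.

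**Figure D5:**
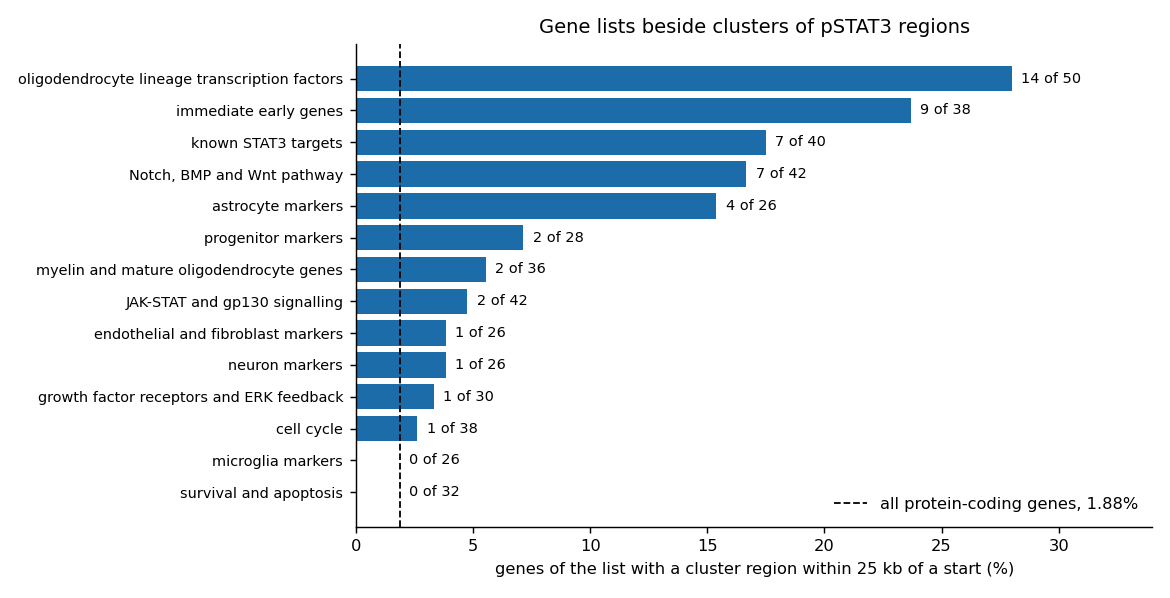
Percent of the genes of each list with a cluster region within 25 kb of a start (horizontal axis), with the counts beside the bars and the share of all protein-coding genes, 1.88%, as a dashed line. Oligodendrocyte lineage transcription factors are highest with 14 of 50, and microglia markers and survival genes have 0.

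Transcription factors of the oligodendrocyte lineage had the highest share, 14 of 50 (28.0%), and 39 of 50 had any region. The 14 were Etv5, Hes1, Hes5, Id3, Klf9, Nfix, Olig1, Olig2, Pou3f2, Pou3f3, Sox2, Sox4, Sox6 and Zeb2. In 13 of them a cluster region lay within 1 kb of the start, yet in 9 the strongest region was farther off. Over all 412 genes, 170 (41.3%) had a cluster region within 1 kb, and in 59 (14.3%) the strongest was that near. Olig2, which specifies the lineage, had 3 regions (chr16:91222069-91234047): 36.7 and 27.6 at 8013 bp downstream, but 6.23 and 5.64 at 93 bp upstream and 4.41 and 4.98 at 2726 bp upstream, the last with a replicate 1 background of 13.1.

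Its neighbour Olig1, which acts in maturation and remyelination, had 4 regions (chr16:91255193-91272914), with 38.2 and 35.5 at 6492 bp upstream, 13.7 and 9.88 at 3558 bp upstream, 12.2 and 10.9 at 2997 bp downstream, and 8.05 and 5.64 at 14397 bp upstream. With another cluster of 4 regions, which was named after its values were seen and reached 26.4 and 15.8, 11 regions lay within 92.7 kb. Hes5, a repressor that answers to Notch, had 4 regions with 25.3 and 17.4 at 2562 bp upstream and 11.2 and 7.17 at the start. Id3, an inhibitor of bHLH factors, had 5, of which 17.4 and 13.7, 8622 bp upstream, had the highest lower fold. Replicate 1 alone was higher at 3187 bp upstream, where the folds were 21.3 and 11.2.

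Immediate early genes followed with 9 of 38 (23.7%): Btg2, Egr1, Fosl2, Gadd45g, Junb, Klf6, Myc, Per1 and Zfp36. In 8 of the 9 the strongest region was more than 1 kb from the start, a share near that of all genes beside clusters, 353 of 412. Btg2, an antiproliferative gene, was the exception, with 31.6 and 23.8 at 670 bp upstream and 3 weaker regions of at most 14.2 and 10.0 in its cluster. Zfp36 had 24.5 and 13.9 at 3019 bp upstream, against 13.8 and 8.95 at its promoter. Myc, a growth-promoting factor, had 3 regions within 2.68 kb, with 22.1 and 11.1, 22.6 and 18.7, and 11.0 and 8.71. Known STAT3 targets counted 7 of 40 (17.5%), namely Egr1, Gadd45g, Junb, Muc1, Myc, Pim3 and Socs3, and 30 of 40 had some region. Of those 30, 23.3% had a cluster region, against 5.48% of all genes with any region, given without a test. The nearest cluster region was 23.6 kb from the start of Egr1 and 21.9 kb from that of Pim3. Within 5 kb of a start the count was 5 of 40. The targets Stat3, Fos, Bcl3 and Gfap had no cluster region within 25 kb.

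The Notch, BMP and Wnt pathway list had 7 of 42 (16.7%), which were Notch1, the Notch responsive Hes1, Hes5 and Nrarp, the BMP receptors Bmpr1a and Bmpr1b, and Id3, a BMP target. Hes1, Hes5 and Id3 are also lineage factors above. Among genes of JAK-STAT signalling only Socs3 and Stat6 of 42 (4.76%) had one, and for Stat6 it was a cluster of 3 at Nab2, with at most 12.2 and 10.6 at 6.74 kb from the Stat6 start. Survival and apoptosis genes had 0 of 32. Some region lay near 18 of them, but of all genes with any region only 5.48% had a cluster region, so this 0 is not read as a lack. Cell cycle genes had 1 of 38, E2f2, whose region belonged to the Id3 cluster at 24.7 kb. Growth factor receptors had 1 of 30, Fgfr1, with 31.0 and 25.3 at 4272 bp downstream of its start.

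Among markers of cell types, those of astrocytes had the highest count, and no test was made between the lists. Astrocyte markers had 4 of 26 (15.4%): Aldh1l1, a folate enzyme gene, Cst3, which encodes cystatin C, Slc1a2, a glutamate transporter gene, and Vim, which encodes vimentin and is also expressed in progenitors. At Vim the folds were 31.8 and 22.6 at 1479 bp upstream, 6.95 and 6.80 at 154 bp upstream, and 5.75 and 4.51 at 1638 bp downstream. At Slc1a2 the strongest region, 15.0 and 13.3, lay 15 bp from the start, at Aldh1l1 it had 15.7 and 11.5, and at Cst3 the region with the highest lower fold had 12.9 and 11.0. Progenitor markers had 2 of 28 (7.14%), Cspg4, which encodes the NG2 proteoglycan, and Traf4, a signalling adaptor gene. Cspg4 had 3 regions nearly equal in replicate 1, with 20.2 and 13.6, 20.8 and 19.7, and 19.9 and 15.7, the nearest 3286 bp from its start, and the strongest at Traf4 had 16.1 and 12.4.

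Myelin genes had 2 of 36 (5.56%), Cldn11, a tight junction gene, with 19.1 and 16.9 at 22.6 kb, and Plekhb1 with 25.2 and 21.7 at 881 bp upstream. Neuron markers had 1 of 26, the growth cone gene Gap43, with 9.91 and 8.69 at 20.6 kb, and endothelial and fibroblast markers 1 of 26, Cspg4 again. Microglia markers had 0 of 26. Any region lay within 25 kb of a start for 21 of 26 astrocyte markers, 22 of 28 progenitor markers and 22 of 36 myelin genes. The counts were 13 of 26 for neuron markers, 11 of 26 for endothelial and fibroblast markers and 7 of 26 for microglia markers. The share of all protein-coding genes was 34.3%. Binding near a marker gene says nothing of its level in these cells or of which cells the chromatin came from.

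Clusters also lay near each other. Of the 342, 44 (12.9%) were within 100 kb of another, in 20 groups, 3 of which held 3 or more clusters: those at Irf2bpl, Irs2 and Olig1 with Olig2, described above. Pairs of clusters, named after their values were seen, included those at Gpx4, a glutathione peroxidase gene, and Midn with 11 regions in 94.3 kb, at Elk3, an ETS factor gene, with 8 in 53.9 kb, and at Etv5, another ETS factor gene, with 6 in 89.4 kb. The strongest region of the Gpx4 cluster had 43.9 and 39.7, and that of the pair at Elk3 had 40.4 and 32.8, 55292 bp downstream of the Elk3 start. The cluster with the highest median local background, 13.9 and 7.71, was that at Mid1, a ubiquitin ligase gene named after its values were seen, where 3 regions had folds of 5.98 and 7.35, 8.52 and 4.18, and 5.55 and 4.99.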

How the data were processed

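The study sequenced 2 phosphorylated STAT3 ChIP libraries and 2 inputs. Tools named in the submitters' processing notes are CASAVA 1.8, Bowtie2 and MACS2, on GRCm38.p3, without options. Deposited were a list of peaks for each ChIP library, with 42189 and 26649 peaks, and 1 table of 12925 reproducible regions. Pileup signal and fold enrichment, a ratio of pileup to background, are in the peak lists per the file headers. The deposited p-values and q-values of the lists are written as −log10, read from their values since those headers are damaged. In the table, the deposited columns named pileup and fold enrichment are identical and hold −log10 p averaged over the replicates (within 0.001 for 12377 regions), and the deposited adjusted p-value is an IDR of at most 0.05; neither was used as signal here.

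Each region received, per replicate, the values of the overlapping peak (at least 1 bp) with the highest fold; the local background was computed as (pileup + 1) / fold − 1. Positions are region midpoints. Starts and transcripts are those in the authors' table, and gene types, promoters and microRNAs come from RefSeq (GRCm38.p6), against which all 480 list entries matched. Reads per library are not given in the sources used here; the lowest background of any peak was 4.72 and 2.91, differing 1.62-fold between replicates 1 and 2. Intervals cover counting error only. The code that chains regions was tested on simulated positions with known clusters; whether regions cluster beyond chance was not tested. Python 3.11.15, pandas 2.3.3, numpy 2.4.6, scipy 1.17.1 and matplotlib 3.10.9 were used.

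The text names the 15 largest clusters, the 10 others with the strongest region by lower fold, the 5 others that are densest, up to 4 genes of each list, and clusters at 8 fixed genes where present; 1 of these clusters is not reported here. Members and lists were chosen with earlier results of these data known. Alternatives were other distances, IDR limits, summits, merging, weak regions left out, gene windows and 1 replicate left out.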

Additional observations from a re-analysis of the deposited data

How the results depend on the processing

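The distance of the rule set the counts. With 5 kb in place of 10 kb there were 163 clusters, 391 members and 23 list genes, and with 20 kb 651, 2062 and 76. An IDR of at most 0.01 left 215 clusters, 613 members and 25 list genes, and asking for at least 3 other regions left 240 members. The share of members near a start was 46.1% with a 5 kb window and 16.9% with protein-coding starts only. For 1 replicate alone, only its 12925 peaks with the highest −log10 p were taken, to equal the number of reproducible regions. The cluster counts depend on that number, so they do not describe the full peak lists. There were 334 to 386 clusters, 970 to 1190 members and 37 to 50 list genes. The median fold was 10.9 without replicate 2 (replicate 1) and 7.84 without replicate 1 (replicate 2). The share near a start was not run there, since starts are listed only for reproducible regions. The remaining 43 of these values were taken as unchanged, among them 333 clusters without weak regions and 261 after merging neighbours within 500 bp. For counts this meant a move of less than 1.5 times, and for shares a value within the Wilson interval of the main share. For median folds it meant a move below the SD between the replicate medians, 2.08. This is a wide limit, which the replicate 1 median of 12.9 at an IDR of at most 0.01 also met. Of 59 values for single clusters and lists, 8 moved: for instance Socs3 kept 3 regions at 5 kb and Sox2 5 at an IDR of 0.01. No paired analysis was possible because the inputs were not analysed and no groups were compared. Only 2 libraries, of unknown read depth, stand behind each value.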

Other observations

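Both peak lists held further peaks inside the clusters that did not enter the table of reproducible regions. Within the spans of the 342 clusters lay 1560 peaks of replicate 1, of which 351 were outside the table, with a median fold of 3.85, and 130 of these overlapped a peak of replicate 2. In replicate 2, 163 of 1443 peaks in the spans were outside the table, with a median fold of 3.58. Elsewhere in the genome 28797 and 12918 peaks were outside the table, with median folds of 3.98 and 3.83.

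A cluster on chromosome 3 at histone genes was the only other one where a compared pair of promoters was at least 80% identical. Copies shifted against each other, as in the array, would be missed by this comparison. It held 4 regions, with folds of 12.4 and 8.78, 5.27 and 4.37, 5.69 and 4.37, and 20.9 and 18.7, and 2 of its 6 pairs of promoters were at least 80% identical, with a highest identity of 99.6%. The placing of reads from such copies is not known from these sources, and its part in these values was not tested. The non-coding gene Malat1 had a cluster of 3 regions with at most 15.6 and 11.9, next to another of 3 at Frmd8 that reached 36.2 and 33.7.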
